A study of Mus musculus with 22 samples.

Results

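IGHD1-1, known as DFL16.1, is a mouse heavy-chain diversity (D) segment, and its use was followed here in B cells from inside and outside the blood vessels of the kidney. Its members were all deposited sequences whose first D name was IGHD1-1, with the species prefix and the allele dropped. They made up 4742 of 17178 sequences (27.6%) and 2201 of 6754 clonotypes (32.6%). A clonotype is 1 V segment, 1 J segment and 1 junction nucleotide sequence in 1 library. A rule that takes every name starting with IGHD1- also takes 162 sequences called IGHD1-2 and 314 called IGHD1-3, for 5218 sequences in all. The median matched stretch was only 9 nt in IGHD1-2 clonotypes and 7 nt in IGHD1-3 clonotypes, and the GRCm38 annotation lists no gene of this family other than IGHD1-1, so these were kept apart and entered only an alternative count.

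Uropathogenic Escherichia coli (UPEC) was instilled 2 times into the bladders of 5 animals, and 6 control animals received PBS in the same way. All were WT female mice of the C57BL/6 strain, 8-10 weeks old. At day 56, kidney B cells were sorted into an extravascular fraction, which an intravenous CD45 antibody had not reached, and an intravascular fraction, which it had labelled. Each mouse gave 1 library of each fraction, 22 in all, and the mouse is the replicate. The question was how bacterial challenge and tissue residence relate to the antibody repertoire. Identity of the sorted cells rests on the gate, since the tables hold only heavy-chain sequences.

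A heavy-chain variable region is assembled by joining a D to a J segment and then a V to the DJ. The ends are trimmed by nucleases, and terminal transferase adds untemplated N nucleotides at both joints, so that the D segment and its borders fill the centre of the third complementarity-determining region (CDR3). A D segment can be read in 3 frames, and mouse antibodies favour one rich in tyrosine. B-1 cells, a long-lived population found in body cavities and tissues, often carry junctions with few N nucleotides, among them receptors for phosphatidylcholine that use IGHV11-2 or IGHV12-3.

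The germline segment is 23 nt long and lies on the minus strand of chr12:113482170-113482192 in GRCm38, where the annotation places the D segment Ighd1-1. No genome build is named for these receptor sequences in the sources used here, since they were annotated against IMGT gene sequences, and the position is that of the reference sequence. The germline sequence is shown first, followed by the junctions of the clonotypes on which the results below turn, each from the conserved cysteine to the conserved tryptophan codon, with the stretch assigned to IGHD1-1 in capitals.
Germline IGHD1-1: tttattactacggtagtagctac
PBS mouse 1, extravascular, largest clonotype: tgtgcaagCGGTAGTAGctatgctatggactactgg
PBS mouse 3, extravascular, largest clonotype: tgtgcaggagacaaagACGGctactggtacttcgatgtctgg
UPEC mouse 2, extravascular, largest clonotype: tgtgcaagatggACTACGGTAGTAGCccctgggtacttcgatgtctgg
UPEC mouse 3, extravascular, largest clonotype: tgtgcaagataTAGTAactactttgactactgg
Shared IGHV11-2 junction, most mice: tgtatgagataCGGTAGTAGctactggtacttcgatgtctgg
Shared IGHV11-2 junction, shorter D: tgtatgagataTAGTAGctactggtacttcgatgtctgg
Shared IGHV5-6 junction: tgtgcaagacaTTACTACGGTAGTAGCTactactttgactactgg

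The frame starting at germline base 3 reads YYYGSSY and is called the tyrosine frame. The frame starting at base 1 reads FITTVVA and is called hydrophobic. The frame starting at base 2 holds stop codons, which trimming must remove before the junction can code for protein.

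Libraries held 244 to 2134 distinct sequences, backed by 936 to 18956 reads, and 192 to 406 clonotypes. The extravascular libraries of PBS mice were the deepest, with a median of 1286 sequences, against 477.5 in PBS intravascular, 743 in UPEC extravascular and 377 in UPEC intravascular libraries. IGHD1-1 contributed 76 to 533 sequences and 65 to 143 clonotypes to each library. Binomial (Wilson, 95%) intervals on single libraries ran from 9.43 to 13.6% for the lowest share, 11.3%, to 35.6 to 42.1% for the highest, 38.8%, and cover counting error only.

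IGHD1-1 sequences were more frequent in extravascular B cells of UPEC-challenged mice than of PBS mice. The share of sequences was 25.0, 20.2, 29.2, 11.3, 16.7 and 25.0% in PBS mice 1 to 6 and 31.1, 35.1, 36.5, 32.3 and 38.8% in UPEC mice 1 to 5. The highest PBS library lay below the lowest UPEC library, so the groups did not overlap. The means were 34.8 ± 3.11% (SD, n = 5) and 21.2 ± 6.50% (SD, n = 6), a difference of 13.6 percentage points. An exact two-sided Mann-Whitney test gave p = 0.00433, the smallest value that 6 against 5 mice allow, and 0.026 after Benjamini-Hochberg adjustment over the 6 IGHD1-1 measures. IGHD1-1 was the 1 of 12 D segments tested (8.33%) whose groups did not overlap. This test over D segments was added after the shares had been seen, and adjusted over the 12 segments by the same exact test the value was p = 0.052, so no D segment passed.

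The difference shrank when clonotypes rather than sequences were counted. IGHD1-1 made up 28.9, 26.5, 32.7, 26.1, 32.2 and 32.6% of extravascular clonotypes in PBS mice and 32.3, 39.6, 31.9, 34.8 and 37.2% in UPEC mice. These ranges overlapped, and the means of 29.8 ± 3.09% and 35.2 ± 3.26% differed by 5.33 percentage points (exact Mann-Whitney p = 0.0823). Many extravascular clonotypes in PBS mice differed by 1 nt of junction from a larger clonotype with the same V and J. When such clonotypes were merged into the larger one, a count chosen after seeing the data, IGHD1-1 made up 33.6, 34.0, 37.5, 34.5, 34.8 and 31.9% in PBS mice and 32.5, 39.5, 35.4, 35.3 and 36.5% in UPEC mice. The merged difference was 1.46 percentage points (exact Mann-Whitney p = 0.247). Merging took the 94 IGHD1-1 clonotypes of the extravascular library of PBS mouse 1 to 41, and 43 of the 94 became 1 IGHV3-1 clonotype.

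**Figure D1:**
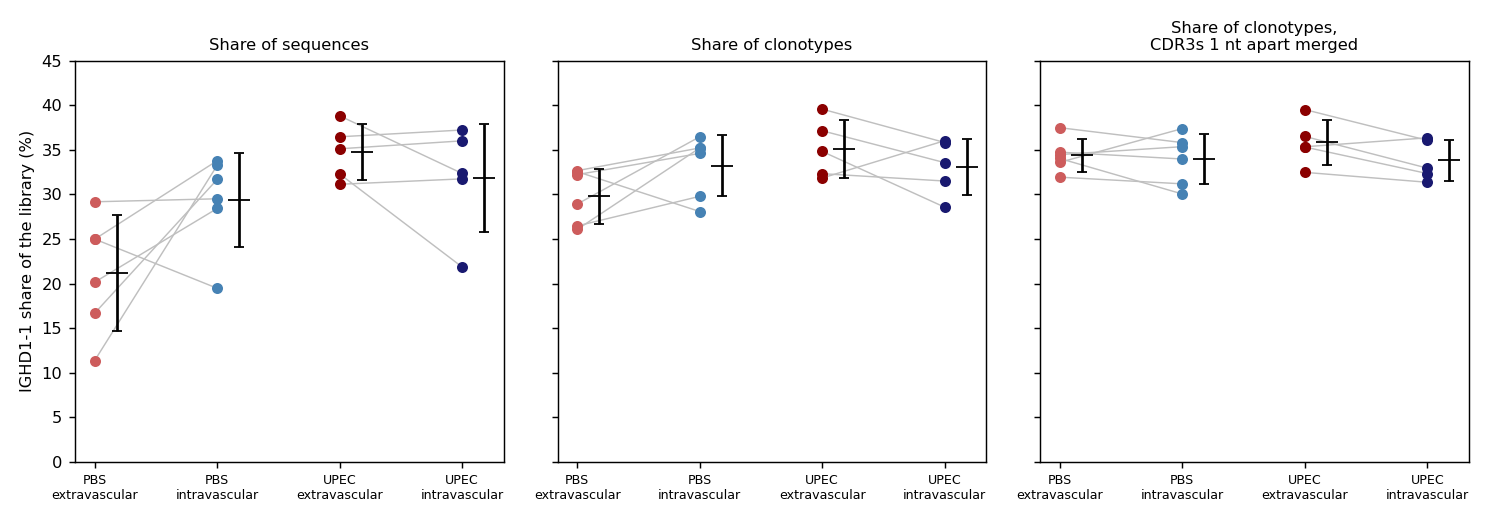
IGHD1-1 share of each library (y axis, percent) by group, counted as sequences, clonotypes and clonotypes with CDR3s 1 nt apart merged. Points are libraries, grey lines join both libraries of a mouse, and bars give the mean and SD (n = 6 PBS, n = 5 UPEC); the gap between the extravascular groups is 13.6 percentage points on the left and 1.46 on the right.

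The D name is less certain for short matches. Allele 02 was named in 292 of the 2201 IGHD1-1 clonotypes (13.3%), which were kept as members. Their mean D stretch was 7.64 nt, with 162 under 8 nt, against a mean of 13.6 nt for allele 01. With only D stretches of at least 8 nt, the extravascular difference in share of sequences was 9.70 percentage points (exact Mann-Whitney p = 0.0823) and that in share of clonotypes was 6.14 (exact Mann-Whitney p = 0.0303). Mean clone sizes are given alongside and were not tested between treatments. In PBS extravascular libraries an IGHD1-1 clonotype held 3.10 ± 1.66 sequences (SD, n = 6) and a clonotype with any other D held 4.67 ± 1.20, against 2.81 ± 1.34 and 2.79 ± 1.11 (SD, n = 5) in UPEC extravascular libraries. The part of clone size in the difference was not tested.

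Intravascular shares did not pass the test between treatments. The share of sequences was 33.8, 28.4, 29.5, 33.3, 31.7 and 19.5% in PBS mice and 31.8, 36.0, 37.2, 21.9 and 32.4% in UPEC mice, with means of 29.4 ± 5.27% and 31.8 ± 6.06% (difference 2.49 percentage points, exact Mann-Whitney p = 0.329). Within PBS mice the extravascular share of sequences was lower than the intravascular share in 5 of 6 animals, with a mean difference of -8.14 ± 9.85 percentage points (SD of the within-mouse differences; exact signed-rank p = 0.0938), and -5.38 without PBS mouse 4. Within UPEC mice the mean difference was 2.93 ± 5.24 percentage points, with 2 of 5 animals higher (exact signed-rank p = 0.812; 5 pairs cannot go below 0.0625), and it was 1.05 without UPEC mouse 4 and 0.344 with D stretches of at least 8 nt. The change of this compartment difference with treatment was 11.1 percentage points by sequence (exact permutation p = 0.0606) and 5.46 by clonotype (exact permutation p = 0.0801). Over all 11 mice the share of clonotypes was 32.2 ± 4.09% outside and 33.2 ± 3.13% inside the vessels (exact signed-rank p = 0.765). Over clonotypes as defined, none of 12 D segments was called by compartment (0%) after Benjamini-Hochberg adjustment, and none had an unadjusted exact signed-rank p below 0.05. No D segment was called with D of at least 8 nt or after merging either. The lowest unadjusted exact signed-rank p values there were 0.0195 and 0.042.

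A few large clonotypes carried much of the IGHD1-1 sequence count outside the vessels. In PBS mouse 1 the IGHV3-1/IGHJ4 clonotype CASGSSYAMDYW held 374 sequences, 17.5% of the library, and had no N nucleotide. It was seen in 0 of the 580 sequences of that animal's intravascular library, which allows a share of up to 0.517%. Without it the IGHD1-1 share of that library was 9.03%. In PBS mouse 3 the IGHV12-3/IGHJ1 clonotype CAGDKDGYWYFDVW held 177 sequences (10.4% of the library), with only 4 nt assigned to D. In UPEC mouse 3 the IGHV3-8/IGHJ2 clonotype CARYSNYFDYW held 138 sequences (12.5%), with 5 nt assigned to D and no N nucleotide. For clonotypes of this kind the D name rests on very few bases.

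In UPEC mouse 2 the largest clonotype, an IGHV3-8/IGHJ1 junction with 14 nt of D in the hydrophobic frame, held 67 sequences (9.77%). The largest in UPEC mouse 5, with IGHV1-58 and IGHJ2, held 49 sequences (5.73%) and in UPEC mouse 4, with IGHV3-8 and IGHJ2, 38 sequences (5.11%). In the 5 remaining extravascular libraries the largest IGHD1-1 clonotype took 1.23 to 3.37% of sequences, and in the 11 intravascular libraries 0.748 to 4.05%. IGHD1-1 clonotypes of 20 or more sequences numbered 16 in PBS and 13 in UPEC extravascular libraries and 0 and 1 in the intravascular libraries. With the largest IGHD1-1 clonotype of each library left out, extravascular shares ran from 9.03 to 22.6% in PBS mice and from 27.4 to 35.1% in UPEC mice.

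**Figure D2:**
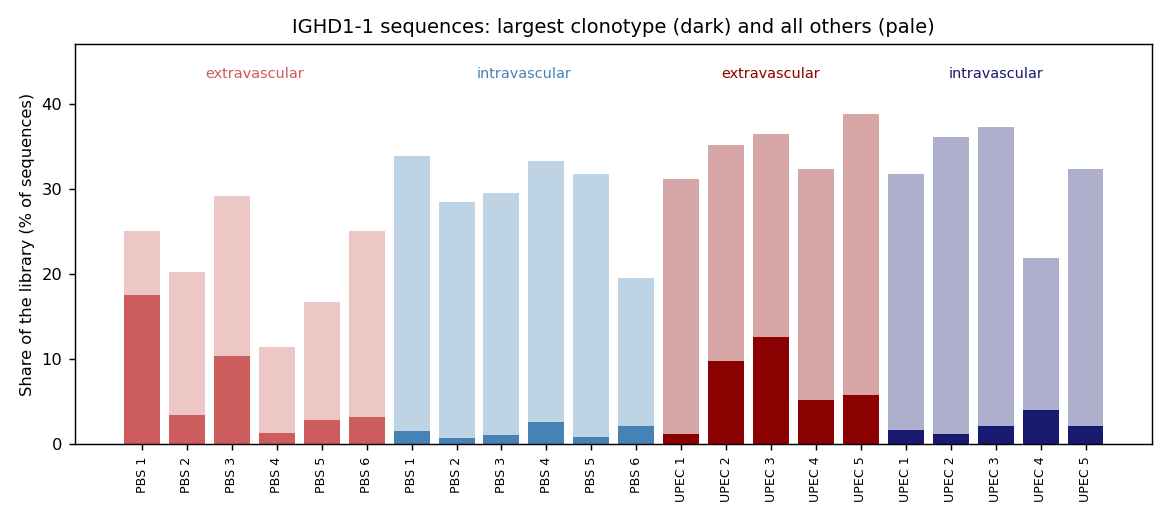
IGHD1-1 share of each library in percent of sequences (y axis), split into the largest IGHD1-1 clonotype (dark) and all other IGHD1-1 sequences (pale), for each mouse and compartment (x axis). The dark part reaches 17.5% in PBS mouse 1 and 12.5% in UPEC mouse 3 outside the vessels and 4.05% at most inside them.

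Few clonotypes were found on both sides of the vessel wall. Of 1017 extravascular and 1184 intravascular IGHD1-1 clonotypes, 23 occurred in both libraries of 1 animal, which is 2.26% of the former and 1.94% of the latter. UPEC mouse 4 held 12 of these 23. Sharing required an identical junction, and intravascular libraries held only 344 to 938 sequences. These shares were not adjusted for depth or set against clonotypes with other D segments. Sequences with Igha reads, taken as the first of 9 isotype numbers in the deposited names, numbered 77 of 1291 among UPEC extravascular IGHD1-1 sequences, 72 of them in UPEC mouse 5, and 14 of 1832 in PBS extravascular libraries. With most of them in 1 animal, no comparison was drawn from these counts.

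The bases kept from IGHD1-1 lay mostly in its middle. The matched stretch averaged 12.8 nt (SD 4.64, median 13, range 4 to 23) over the 2201 clonotypes, and 15 kept all 23 nt. Of these clonotypes, 2045 (92.9%) could be placed at 1 position of the germline segment. Germline base 12 was kept in 94.1% of placed clonotypes, base 1 in 4.89% and base 23 in 20.6%. A stretch of 12 nt or more must cover base 12, and the name itself was assigned from the matched stretch, so this profile is a description of the members. The mean loss was 5.56 nt at the 5′ end and 4.16 nt at the 3′ end. Retention fell from 66.3% at base 19 to 48.7% at base 20. In PBS extravascular libraries it fell from 72.1 to 47.8% over the same step. The D stretch of the largest clonotype of PBS mouse 1 ends at base 19.

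**Figure D3:**
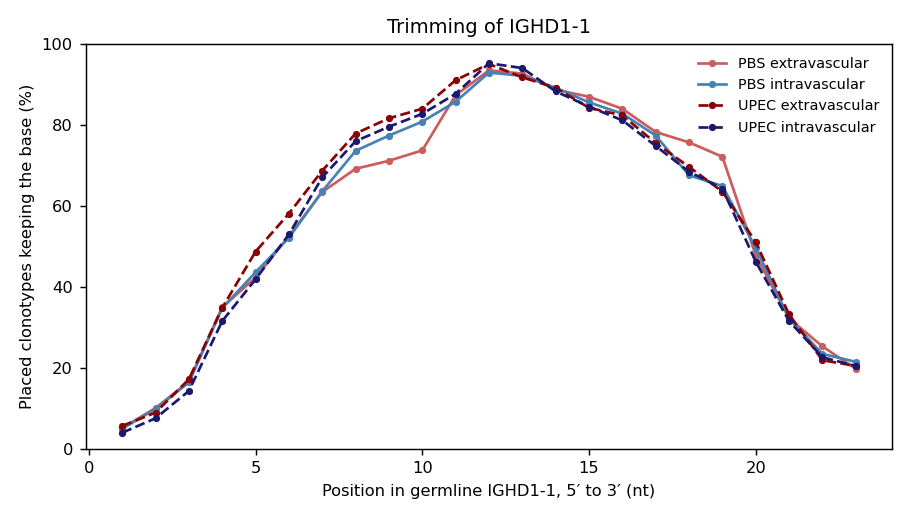
Share of placed IGHD1-1 clonotypes that keep each germline base (y axis, percent) by position from the 5′ end (x axis, nt), 1 line for each group (506, 610, 425 and 504 clonotypes). All lines peak near base 12, and the PBS extravascular line reads 73.7% at base 10 against 80.8 to 84.0% in the other groups. Clonotypes are pooled over mice and not merged. In PBS mouse 1, 43 of them became 1 IGHV3-1 clonotype on merging, and the D stretch of that clonotype lacks base 10. The part of this family in the group difference was not tested.

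Some bases of D may also be hidden in J. The germline 3′ end has bases in common with the starts of several J segments, and the annotation gives such bases to J. Of the placed clonotypes, 505 (24.7%) joined D directly to J, with no N or palindromic base between them, and in 315 of these the first J bases also continued the germline D. The shared stretch reached 4 nt in 125 junctions, of which 106 used IGHJ1, 57.3% of the direct joints of that segment, against 12.2% of those to IGHJ2. Joints with at least 3 shared bases made up 17.4% of placed clonotypes in PBS extravascular libraries, 5.90% in PBS intravascular, 5.65% in UPEC extravascular and 7.74% in UPEC intravascular libraries. After merging, the PBS extravascular value was 13.1% and the other groups lay between 5.70 and 7.63%. All these shares are pooled over the mice of a group, without a spread between mice, and were not tested. The largest clonotype of PBS mouse 1 has such a joint, and 43 clonotypes of that library became 1 with it on merging.

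Most IGHD1-1 clonotypes read the segment in the tyrosine frame. It was used by 1518 of the 2045 placed clonotypes (74.2%), the hydrophobic frame by 427 (20.9%) and the stop frame by 100 (4.89%). The commonest D-coded peptides were YYGSS in 167 clonotypes, YYGS in 158 and YYGSSY in 107, and TTVV, in 66, was the commonest of the hydrophobic frame. Clonotypes in the stop frame had 8.03 nt of D and a CDR3 of 33.0 nt, against 13.7 and 39.8 nt in the tyrosine frame. These values are linked by construction, since a long D in that frame would meet a stop codon. Productive sequences only were deposited.

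The tyrosine frame was the most used in all 22 libraries. It was used by 78.3 ± 9.56% of placed clonotypes in PBS extravascular, 75.4 ± 3.14% in PBS intravascular, 71.1 ± 10.6% in UPEC extravascular and 70.2 ± 7.25% in UPEC intravascular libraries (SD, n = 6 or 5). It was highest in the extravascular library of PBS mouse 6, at 87.2%, and lowest in that of UPEC mouse 2, at 57.5%. The extravascular groups overlapped and differed by -7.17 percentage points (exact Mann-Whitney p = 0.329). The difference was -3.77 without UPEC mouse 2, -3.11 after merging and -17.7 by sequence, none of which passed.

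**Figure D4:**
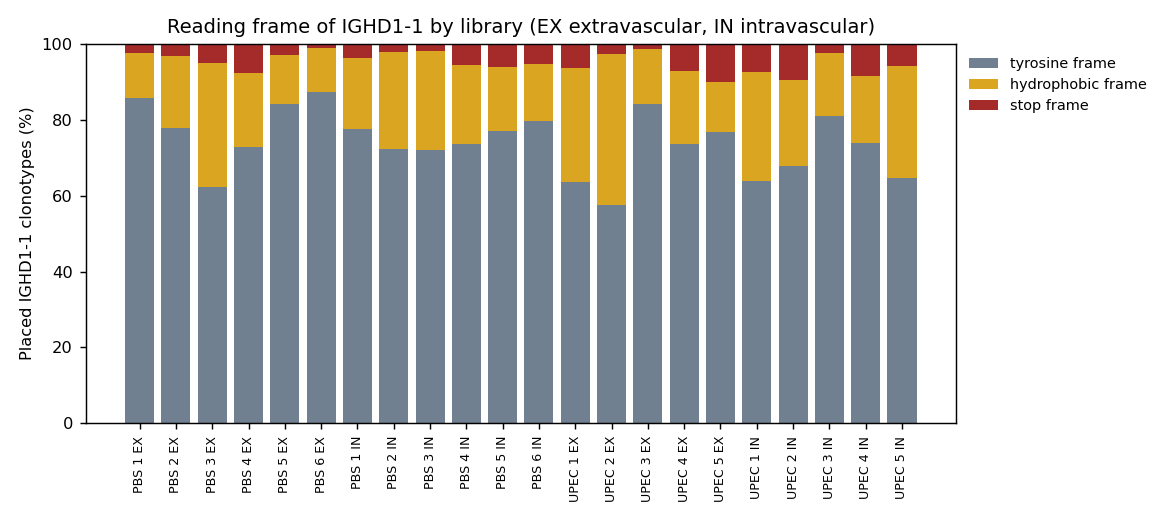
Reading frame of IGHD1-1 in each library as percent of placed clonotypes (y axis), in the tyrosine, hydrophobic and stop frames. Libraries are ordered by group along the x axis (EX extravascular, IN intravascular), and the tyrosine frame runs from 57.5 to 87.2%.

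The lengths of D, N additions and CDR3 did not pass the test in any of the 6 comparisons. Mean D length was 12.6 ± 0.869, 13.0 ± 0.456, 13.2 ± 0.957 and 12.7 ± 0.588 nt in PBS extravascular, PBS intravascular, UPEC extravascular and UPEC intravascular libraries. Mean CDR3 length was 38.3 ± 2.29, 39.5 ± 0.774, 38.9 ± 0.870 and 39.1 ± 0.725 nt in the same order. The 2 joints together held 5.48 ± 1.13, 6.04 ± 0.346, 5.65 ± 0.846 and 5.71 ± 0.342 N nucleotides. The extravascular library of PBS mouse 1 stood lowest in all 3 lengths, at 11.4, 34.9 and 3.60 nt.

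The compartment difference in N additions passed the test only under other counts and without adjustment. Over all 11 mice the difference was -0.331 nt (exact signed-rank p = 0.465), with 6 mice higher and 5 lower, and -0.167 nt without PBS mouse 1. It was -0.605 nt (exact signed-rank p = 0.00488) among sequences with at least 3 reads and -0.579 nt (exact signed-rank p = 0.0244) after merging. By sequence the difference was larger and did not pass, at -0.952 nt in all mice (exact signed-rank p = 0.175). In PBS mice alone it was -1.82 nt by sequence (exact signed-rank p = 0.0625). Clonotypes with no N nucleotide at either joint made up 12.3 ± 9.79% in PBS extravascular libraries, 3.25 ± 2.55% in PBS intravascular, 7.46 ± 5.73% in UPEC extravascular and 5.58 ± 0.976% in UPEC intravascular libraries. Over pooled clonotypes these shares were 11.6, 3.60, 7.21 and 5.50%, and after merging 9.51, 3.37, 6.93 and 5.35%.

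IGHD1-1 was joined to IGHJ1 more often than D segments of the IGHD2 family were. Over the 11 intravascular libraries 30.1 ± 4.22% of IGHD1-1 clonotypes used IGHJ1, the J segment nearest to the D cluster, against 18.3 ± 3.65% of IGHD2 clonotypes. It was higher in 11 of 11 mice (exact signed-rank, adjusted p = 0.00391). IGHJ3 was used by 16.6 ± 3.97% against 24.7 ± 6.45%, lower in 10 of 11 mice (exact signed-rank, adjusted p = 0.0137). IGHJ2 and IGHJ4 did not pass, at 29.1 against 29.4% and 24.2 against 27.5%. Of 4 J segments, 2 were called (50%), and both were also called by sequence, with D of at least 8 nt and after merging.

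By compartment no J segment was called (0 of 4, 0%; none had an unadjusted exact signed-rank p below 0.05). IGHJ4 made up 32.4 ± 13.4% of PBS extravascular clonotypes, where PBS mouse 1 reached 58.5%, against 22.3 ± 3.05% of PBS intravascular ones. UPEC libraries gave 25.0 ± 7.73% outside and 26.4 ± 5.05% inside the vessels.

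IGHD1-1 junctions were longer than those of the IGHD2 family. The CDR3 was 39.3 against 36.6 nt inside the vessels and 38.6 against 35.7 nt outside, longer in 11 of 11 mice each time. The matched D stretch lies within the CDR3 and was 12.8 against 10.4 nt inside and 12.9 against 10.2 nt outside. Because the germline segments differ in length, nothing is read from a test of either. The adjustments that follow are given with CDR3 length and without it. Leaving it out was chosen after seeing the data. N additions were alike in mean inside the vessels, at 5.89 nt for both, with a mean within-mouse difference of -0.00309 nt (SD 0.603, n = 11). Outside, an IGHD1-1 clonotype held 2.97 sequences and an IGHD2 clonotype 4.05, smaller in 9 of 11 mice (exact signed-rank p = 0.0186). This passed narrowly over the 8 tests planned, CDR3 length among them (exact signed-rank, adjusted p = 0.0495). It did not pass over the 6 tests without CDR3 length (exact signed-rank, adjusted p = 0.084). N additions outside the vessels depended on the count. By clonotype IGHD1-1 had 5.56 and IGHD2 5.75 nt, with 4 mice higher and 7 lower (exact signed-rank p = 0.520). By sequence they had 4.71 and 3.40 nt, with 9 mice higher and 2 lower. The difference by sequence passed with CDR3 length among the tests (exact signed-rank, adjusted p = 0.0371). It did not pass over the 4 tests without CDR3 length (exact signed-rank, adjusted p = 0.056).

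The V segments joined most often to IGHD1-1 were IGHV3-8, IGHV3-1, IGHV3-6 and IGHV1S22, and their order depended on the clonotype count. IGHV3-8 was joined in 296 clonotypes (13.4%), IGHV3-1 in 279 (12.7%), IGHV3-6 in 229 (10.4%) and IGHV1S22 in 224 (10.2%). IGHV5-17 (107), IGHV1-48 (103), IGHV12-3 (79), IGHV15-2 (74), IGHV13-2 (73) and IGHV5-4 (62) followed. After merging, IGHV3-6 (221) and IGHV1S22 (215) came before IGHV3-8 (202) and IGHV3-1 (194). Over all D segments IGHV3-8 took 14.3%, IGHV3-1 12.7% and IGHV3-6 12.1% of clonotypes. Read the other way, IGHD1-1 was used by 30.5, 32.6 and 28.1% of clonotypes with these V segments, near its 32.6% share of all clonotypes, by 52.1% of those with IGHV1S22, 52.8% with IGHV1-48 and 51.0% with IGHV15-2, and after merging by 51.3, 53.2 and 49.6% of the latter 3. Against IGHD2 clonotypes of the intravascular libraries, 3 of 18 V segments were called (16.7%). IGHV1S22 took 12.2% of IGHD1-1 and 7.57% of IGHD2 clonotypes, higher in 11 of 11 mice, and IGHV15-2 took 4.90 and 2.62%, higher in 10 of 11. IGHV11-2 took 0.823 and 2.25%, lower in 10 mice and higher in none (exact signed-rank, adjusted p = 0.0176 for each of the 3), and was no longer called with D of at least 8 nt. IGHV12-3 took 2.09 and 5.16% (exact signed-rank, adjusted p = 0.0615) and was called after merging, at 1.61 against 4.73%, lower in 9 of 11 mice (exact signed-rank, adjusted p = 0.0293).

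No V partner was called between compartments over clonotypes as defined (0 of 19, 0%), and 6 of 19 (31.6%) had an unadjusted p below 0.05 in the exact signed-rank test. Shares of IGHV1-55, IGHV1-72, IGHV11-2 and IGHV5-17 were higher outside and those of IGHV13-2 and IGHV15-2 higher inside, among these 6. After merging clonotypes 1 nt apart, a count added after the data were seen, 9 of 19 (47.4%) were called.

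In that merged count, 5 of 19 V partners (26.3%) were lower outside the vessels, among them IGHV3-8 and IGHV3-1. IGHV3-6, at 10.9 against 11.6%, was not called. IGHV3-8 was joined in 5.18 ± 3.30% of extravascular and 14.2 ± 4.44% of intravascular IGHD1-1 clonotypes, lower in 10 of 11 mice (exact signed-rank, adjusted p = 0.0186). It ran from 0 to 7.32% in PBS extravascular and from 9.42 to 16.8% in PBS intravascular libraries, and from 1.56 to 8.93% and from 8.18 to 21.9% in UPEC libraries. IGHV3-1 was joined in 4.87 ± 3.82% and 13.7 ± 5.37%, lower in 9 of 11 mice (exact signed-rank, adjusted p = 0.0232). Both calls rest on the merging. Over clonotypes as defined, IGHV3-8 was joined in 11.4 and 15.0% and IGHV3-1 in 10.8 and 13.9% (exact signed-rank p = 0.278 and 0.320), and by sequence IGHV3-8 made up 21.4 and 22.2% and IGHV3-1 18.8 and 17.1%, higher outside in mean (exact signed-rank p = 0.898 and 0.765). IGHV3-5, IGHV15-2 and IGHV1-58 were also called lower outside after merging, and the mean of IGHV1-58 was higher outside by sequence, at 2.55 against 2.44%. IGHV3-5 was joined in 0 of 389 merged PBS extravascular clonotypes, which allows a share of up to 0.771%, and in 13 of 624 PBS intravascular ones.

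The 4 of 19 (21.1%) called higher outside after merging were IGHV5-17, IGHV11-2, IGHV1-55 and IGHV1-72, and their means were also higher outside by clonotype and by sequence. None of these 4 was called in either of those counts. By sequence IGHV5-17 made up 3.25 and 2.44%, with 6 mice higher and 5 lower (exact signed-rank p = 0.520). IGHV5-17 was joined in 8.04 ± 3.49% of extravascular and 3.33 ± 2.46% of intravascular clonotypes, higher in 10 of 11 mice, and IGHV11-2 in 3.65 ± 2.71% and 0.792 ± 1.10%, higher in 9 and lower in 1 (exact signed-rank, adjusted p = 0.0232 for each). IGHV1-55 was joined in 3.64 ± 2.83% and 0.830 ± 1.12%. Among merged IGHD2 clonotypes, IGHV3-8 was joined in 5.96 and 16.1% and IGHV11-2 in 3.82 and 1.70%. The compartment difference of IGHD1-1 minus that of IGHD2 passed the exact signed-rank test for none of the 19 segments after adjustment, and for IGHV5-17 (p = 0.0186) and IGHV1-53 (p = 0.0322) before it; IGHV1-53 is named after its values were seen.

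**Figure D5:**
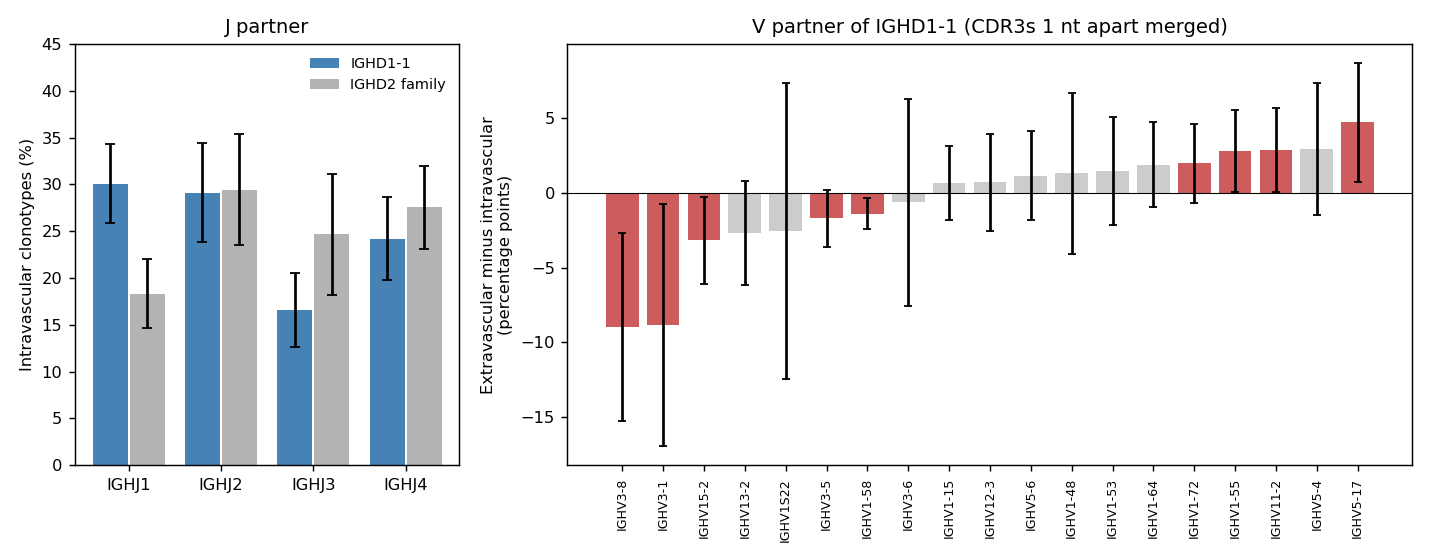
Left, J partner of intravascular IGHD1-1 and IGHD2 clonotypes (percent; bars are means over 11 mice, error bars SD), with IGHJ1 at 30.1 against 18.3%. Right, extravascular minus intravascular share of each V partner among IGHD1-1 clonotypes after merging (percentage points; mean and SD of within-mouse differences, n = 11), with the 9 called segments in red.

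IGHD1-1 was used in 43 of 144 clonotypes with IGHV11-2 (29.9%) and in 79 of 553 with IGHV12-3 (14.3%), the V segments associated with phosphatidylcholine binding, against 32.6% over all V segments; these 2 shares were not tested against each other. After merging these counts were 34 of 93 (36.6%) and 34 of 218 (15.6%). Of the 43 clonotypes with IGHV11-2, 28 (65.1%) had no N nucleotide and 97.7% used IGHJ1. Of the 79 with IGHV12-3, 14 (17.7%) had no N nucleotide and 84.8% used IGHJ1, and after merging 6 of 34 had none and 76.5% used IGHJ1. The matched D stretch was short in both, 7.84 and 9.72 nt.

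Few IGHD1-1 receptors recurred between animals. Of 2097 distinct combinations of CDR3 amino acids, V and J, 24 occurred in at least 2 mice. IGHJ1 was used by 19 of these, IGHV12-3 by 9 and IGHV11-2 by 7. Only 4 occurred in at least 3 mice, 3 of them with IGHV11-2.

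The most widely shared was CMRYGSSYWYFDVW, with IGHV11-2 and IGHJ1, found in 9 of 11 mice. It was present in 5 PBS and 4 UPEC extravascular libraries and in 1 PBS and 3 UPEC intravascular libraries, with 37 sequences outside and 5 inside the vessels. A single nucleotide version, listed above with the D stretch CGGTAGTAG, accounted for 12 of the 13 libraries, and no version had an N nucleotide. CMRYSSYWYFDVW, 3 nt shorter, occurred in 5 mice with 1 nucleotide version. The IGHV5-6/IGHJ2 junction, with 17 nt of D and no N nucleotide, occurred in 4 mice, and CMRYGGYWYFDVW in 3 mice with 3 nucleotide versions. The D stretches of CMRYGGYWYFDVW held only 6 to 7 nt and exceeded 25% mismatches against the germline sequence shown, so its D name is uncertain. The extravascular library held more sequences than the intravascular one in most mice, though not in UPEC mice 1 and 4, and these counts were not adjusted for depth.

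The share of no other D segment tracked that of IGHD1-1 closely over the 22 libraries. The highest values of Spearman's rho among the 11 other segments were 0.13 for IGHD2-2, 0.07 for IGHD2-4 and 0.03 for IGHD2-1. These are descriptions over libraries that come in pairs from 11 mice and whose shares sum to a whole.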

How the data were processed

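B-cell receptor heavy chains were amplified from sorted kidney B cells with V-gene primers and barcoded constant-region primers. The tables the authors deposited hold gene names and nucleotide strings from IMGT/V-QUEST rather than counts, 1 row per distinct productive sequence, with 9 isotype read numbers inside the sequence name. The authors filtered reads on quality, merged pairs, took a consensus per barcode and removed sequences seen 1 time. The multiplex primers can favour some V segments, and V-QUEST gives bases that fit V or J to those before D, which shortens D.

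A clonotype is a library, V, J and junction, and its values come from the row with most reads. D stretches were placed without gaps at the single best germline position with at most 25% mismatches. Compartments were compared within mouse (exact signed-rank), treatments by exact Mann-Whitney, and the change of the compartment difference by exact permutation. All tests were two-sided. Benjamini-Hochberg adjustment entered the calls of D, V and J segments and the p values named as adjusted. Other p values are unadjusted. Both libraries of a number come from 1 mouse, as the sample titles say, so the pairing is by design; correlations of their D-share deviations ran from -0.77 to 0.49. V segments needed 30 clonotypes and D segments a mean of 5 per library. Between compartments, the 30 were counted over both compartments before merging. A V segment could therefore pass through the compartment where it was more frequent. After merging, IGHV1-72 held 26 clonotypes and IGHV3-5 held 29. Simulated 3-fold changes in 12 D segments were recovered in 100% of 50 runs. The V segments named were IGHV11-2, IGHV12-3, the 10 with most IGHD1-1 clonotypes and those called; the D segments, those called and the 3 most alike in share; the clonotypes, the largest of each library and those in at least 3 mice. The members and lists were chosen with earlier results of these data known. Python 3.11.15, NumPy 2.4.6, pandas 2.3.3 and SciPy 1.17.1 were used.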

Additional observations from a re-analysis of the deposited data

Results flagged for a closer look

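For PBS mouse 6, IGHD1-1 took 19.5% of intravascular sequences, while the other 5 PBS mice ranged from 28.4 to 33.8%. Its gap to the nearest library exceeded Dixon's 95% critical value for a group of 6. It was the only such sample among 24 sets of values tested, the 6 measures in each of 4 groups, and chance gives about 1 in 20. Its share of clonotypes was 28.1%, against 29.8 to 36.5% in the others.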

How the results depend on the processing

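The values are limited by 65 to 143 IGHD1-1 clonotypes per library, by short D matches (341 clonotypes, 15.5%, under 8 nt) and by clonotypes 1 nt apart, whose origin was not tested. Where a value changed below, the cause was not tested, apart from the fewer sequences or clonotypes each count keeps. For the IGHD1-1 measures, passing and calls below refer to an unadjusted p below 0.05.

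Without the replicate block, that is with libraries unpaired, the PBS compartment difference in share of sequences stayed at -8.14 and passed (exact Mann-Whitney p = 0.0411). No other of the 18 compartment differences in the IGHD1-1 measures changed its call unpaired; the D, V and J tests were run only with the pairing.

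Extravascular UPEC minus PBS: share of sequences 9.70 with D of at least 8 nt; share of clonotypes 6.14 with D of at least 8 nt, 4.87 with at least 3 reads (exact p = 0.0173) and 5.62 with IGHD1-2 and IGHD1-3 included (exact p = 0.0303). With those included, the change of the compartment difference was 11.3 by sequence (exact p = 0.0476) and 5.72 by clonotype (exact p = 0.0303). After merging, share of clonotypes by compartment was 0.416 in PBS mice and 1.15 in all mice, CDR3 length in all mice -0.688 nt (exact p = 0.042), N additions in all mice -0.579 nt, D length in PBS mice 0.0891 nt, the change in tyrosine frame 2.07, and V partners called by compartment 9. Junction features called against the IGHD2 family numbered 3 as planned and 0 with CDR3 length left out of the adjustment, an alternative chosen after seeing the data. With at least 3 reads, N additions were -0.772 nt in PBS mice (exact p = 0.0312) and -0.605 nt in all mice, tyrosine frame in intravascular UPEC minus PBS -11.6 (exact p = 0.0303), and, reversed with no call, share of clonotypes in UPEC mice -0.0602, intravascular UPEC minus PBS 2.22 and the change in tyrosine frame 2.36. Other reversals, none called: with D of at least 8 nt, D length in PBS mice 0.0422, tyrosine frame in UPEC mice -0.896 and intravascular CDR3 length 0.0507; by sequence, D length -0.0757 in UPEC and -0.612 in all mice, tyrosine frame in UPEC mice -1.47 and N additions in UPEC mice 0.083; by amino acids, intravascular share of clonotypes 0.013; with IGHD1-2 and IGHD1-3 included, D length in all mice -0.107.

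Leaving out 1 mouse at a time, the extravascular difference in share of sequences ran from 11.6 to 15.1 and kept passing. That in share of clonotypes ran from 4.22 to 6.15 and passed without UPEC mouse 3 (6.15). The change of the compartment difference ran from 8.32 to 13.8 by sequence, passing without PBS mouse 3 or 6, and from 4.31 to 7.04 by clonotype, passing without PBS mouse 6 or UPEC mouse 3. The compartment difference in share of sequences ran from -10.9 to -5.38 in PBS mice. The UPEC compartment difference in share of sequences ran from 1.05 to 3.89 and the extravascular difference in tyrosine frame from -10.4 to -3.77, with no call, and N additions by compartment in all mice from -0.474 to -0.167. Uncalled values that crossed 0 ran from -1.16 to 1.00 (intravascular share of clonotypes), -0.473 to 0.173 (CDR3, UPEC mice), -0.141 to 1.00 (CDR3, extravascular), -0.168 to 0.191 (D length, all mice), -0.345 to 0.211 (N, UPEC mice), -0.208 to 0.458 (N, extravascular), -1.90 to 3.66 (tyrosine frame, UPEC mice) and -4.78 to 0.782 (its change). Counting ambiguous D names separately changed nothing, since there were 0. Of all values recomputed, 187 under other settings and 307 with a mouse left out kept direction and call.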
